A study of Homo sapiens with 2 samples.

Results

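The 38 genes described here are 24 genes of glycolysis and lactate handling and 14 genes of the hypoxia-inducible factor (HIF) pathway and its targets. They were taken from a fixed list of gene names among 24883 named genes with rows in both deposited files. A gene's transcripts were its RefSeq transcripts plus assembled transcripts with a strand that share an intron with them. RNA came from A549 cells, an established line from a human lung adenocarcinoma, labelled as non-small cell lung cancer. The control cells carried an shRNA against LacZ, a bacterial gene (shLacZ, 1 library), and the knockdown cells an shRNA against PSPC1, a paraspeckle RNA-binding protein (shPSPC1, 1 library). Both grew in the same serum-supplemented medium, and the labels name no hypoxic treatment for either. How many clones or cultures were pooled, and the time since shRNA delivery, are not given in the sources used here.

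Glycolysis turns glucose into pyruvate, and tumour cells commonly reduce much of that pyruvate to lactate and export it even where oxygen is present. In normal oxygen, prolyl hydroxylases mark the HIF alpha proteins for degradation, so the amount of HIF alpha protein is set largely after translation and its mRNA level says little about it. When oxygen is low, HIF binds short hypoxia response elements and raises transcription of glucose transporters, most glycolytic enzymes, carbonic anhydrases, angiogenic factors and the prolyl hydroxylases themselves.

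Levels are FPKM (fragments scaled by transcript length and library depth), summed over a gene's transcripts, and values after ± are half-widths of the 95% intervals in the files. A second measure, the estimated fragments of a gene, multiplies each FPKM by the transcript's effective length, so that it counts short and long transcripts alike. Log2 ratios compare the knockdown with the control after a pseudocount of 1 was added to each. There is 1 library per group, so no test and no p-value can be given, and the intervals describe error inside a library. A gene counted as changed when it reached 1 FPKM in the higher library, its log2 ratio was 1 or more in size and its intervals were apart. In bulk RNA, fewer cells of a kind and less RNA per cell cannot be told apart.

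PSPC1 itself stood at 31.5 ± 1.25 FPKM with shLacZ and 17.7 ± 0.858 FPKM with shPSPC1, 56.3% of the control level. The intervals imply a depth near 56200000 fragments for shLacZ and 57100000 for shPSPC1. KRT8, KRT18 and KRT7, keratins typical of carcinoma cells, stood between 632 and 1450 FPKM. All 6 epithelial markers reached 1 FPKM, and all 6 had log2 ratios below 0 by summed FPKM, from -0.40 to -0.24 with a median of -0.30. By estimated fragments 5 of the 6 were below 0, ALDH1A1 being the other (0.08, with a control level of 2568 ± 3250), and the part of these markers in the results was not tested. Of 6 leukocyte markers CD14 alone reached 1 FPKM (2.07 and 1.89), with CD3E listed at 0, and 0 of 6 fibroblast and endothelial markers did.

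Most of the glycolysis and hypoxia genes stood close to their control levels. Of the 38, 33 reached 1 FPKM in at least 1 library, and 0 of these 33 passed the rule by summed FPKM or by estimated fragments, against 3.67% of 11473 and 3.62% of 11442 named genes (2.45% of 11325 by both). At a smaller limit of 1.5-fold in both measures 1 member passed, the glucose transporter gene SLC2A3, which was lower, against 5.77% of 11325 genes (2.28% higher and 3.5% lower). With RefSeq transcripts alone 5 members passed the 2-fold rule (SLC16A1 and SLC16A3 lower, PFKM, ENO1 and PKM higher), and scaling without mitochondrial genes left 0 past 1.5-fold. The median log2 ratio over the 33 was -0.08 by summed FPKM and -0.07 by estimated fragments, where all genes gave 0.01 by each. By estimated fragments 24 of the 33 (72.7%) lay within 0.2 of 0, compared with 61.5% of all genes. They were 18 of 22 glycolysis members (81.8%) and 6 of 11 HIF pathway and target members (54.5%), the latter a smaller share than that of all genes. Among genes at a mean of 100 FPKM or more the members' share was 10 of 12 (83.3%), compared with 55.7% of 515 genes. These shares hold for estimated fragments alone. By summed FPKM GAPDH (-0.63), ENO1 (-0.40), HIF1A (-0.42), LDHA (0.43) and LDHB (0.26), all of that level, lay outside 0.2. The share of all genes within 0.2 by summed FPKM is not given here.

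**Figure D1:**
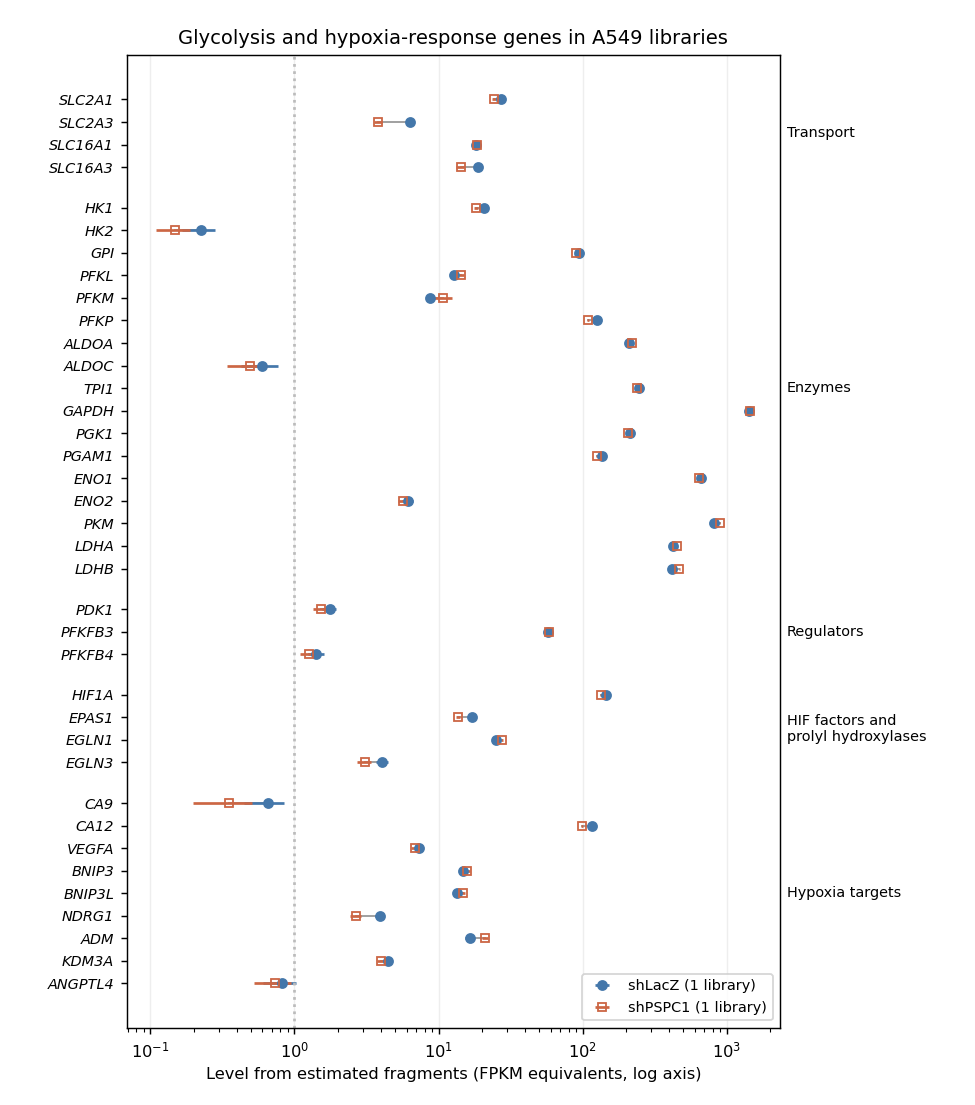
Level of each member from estimated fragments, in FPKM equivalents on a log axis, in the shLacZ library (filled circles) and the shPSPC1 library (open squares), with 95% interval half-widths; the dotted line marks 1 FPKM. Members spread from 0.149 to 1449 FPKM equivalents. The symbols of the libraries lie furthest apart for CA9 and SLC2A3 (54.2% and 59.7% of control), then for HK2 and NDRG1 (66.7% and 68.1%). CA9 and HK2 lie under 1 FPKM and their intervals overlap. ANKRD37, listed at 0 in both, is not drawn.

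Many small differences exceeded the intervals in the files, which take the transcripts of each file as given. The intervals of the estimated fragments did not overlap for 25 of the 33 members (75.8%), 10 higher and 15 lower in the knockdown library, and for 48.9% of all genes at any fold. These shares were not matched for level, as 12 of the 33 members but 515 of the 11325 genes had a mean of 100 FPKM or more. The intervals leave out the choice of transcripts. GAPDH is among the higher members at 0.03, against -0.63 by summed FPKM. With RefSeq transcripts alone ALDOA, ENO1, LDHA and LDHB, all among the 25, turned sign by estimated fragments. Of the 15 lower members, GPI, TPI1, PGK1 and ENO1 turn to ratios above 0 when the libraries are scaled without mitochondrial genes, a shift of 0.09. Members as a group took the same part of both libraries, with 638529 estimated fragments with shLacZ and 653009 with shPSPC1, 1.14% of the depth in each. The 17 glycolytic enzymes alone held 530446 and 550805 of them. The 14 HIF pathway and target genes held 80102 and 75152.

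**Figure D2:**
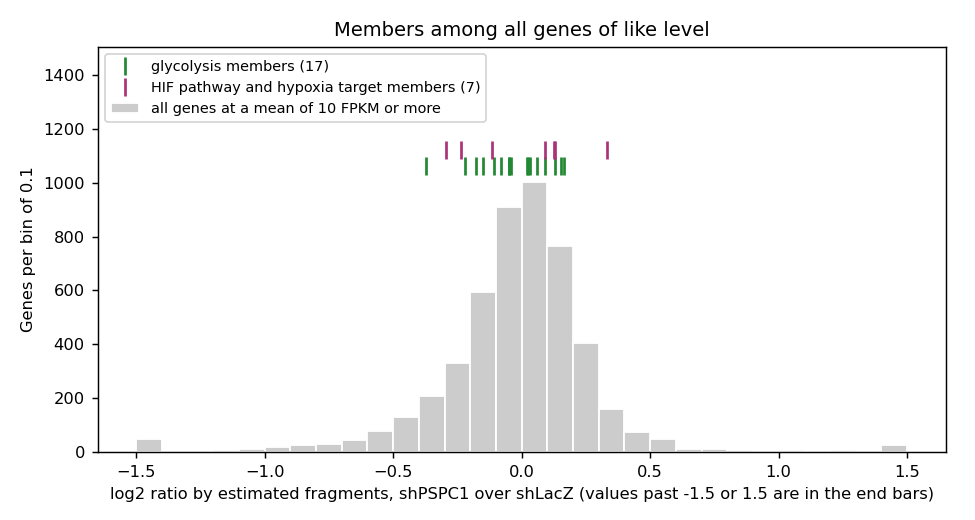
Log2 ratios by estimated fragments of the 5009 genes at a mean of 10 FPKM or more (grey bars, genes per bin of 0.1) with the 24 members of that level as ticks above them, glycolysis members in green and HIF pathway and hypoxia targets in purple. All 24 ticks lie between -0.37 and 0.33, within the central bulk of the bars.

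Glucose enters the cell through facilitative transporters. With all transcripts counted, the difference between the libraries was larger for SLC2A3, the less abundant of the pair. With RefSeq transcripts alone the order was reversed, with log2 ratios of -0.44 for SLC2A1 and -0.23 for SLC2A3. SLC2A1 (GLUT1), the basal transporter of most tumour lines, stood at 36.4 ± 1.25 FPKM with shLacZ and 33.2 ± 1.19 FPKM with shPSPC1 (log2 ratio -0.13, and -0.15 by estimated fragments). Only the intron chain of the RefSeq form of SLC2A1 is present in both files, and transcripts with that chain gave 0.40 and 0.30, the opposite sign. That chain includes assembled forms with the same introns, and the RefSeq transcript alone gave -0.44 by both measures. The sign for SLC2A1 therefore depends on the transcripts counted. SLC2A3 (GLUT3), a transporter of higher glucose affinity, stood at 7.47 ± 0.499 and 3.81 ± 0.266 FPKM (log2 ratio -0.82, and -0.62 by the 1353 and 820 estimated fragments). Its intervals did not overlap. Part of that difference lay in a transcript of 11 exons that was assembled in the control file alone, with 2.82 FPKM and 367 fragments. That transcript reaches from the SLC2A3 locus on the minus strand of chromosome 12 (annotated from 8071824 to 8088892, in the files' coordinates) to a position near 7966304, at the near-identical copy SLC2A14. The annotated SLC2A3 transcript alone stood at 4.64 ± 0.328 and 3.81 ± 0.266 FPKM, a log2 ratio of -0.23, so the call at 1.5-fold rests on the transcript that joins the copies. Whether it is a real RNA or a false join of near-identical copies in the assembly cannot be told from these files. Scaling without mitochondrial genes also ends that call, with log2 ratios of -0.74 by summed FPKM and -0.54 by estimated fragments. SLC2A14 was at 0.114 and 0.0345 FPKM, and adding it to SLC2A3 left the log2 ratio at -0.83. By level, SLC2A1 made up 80.9% of the pair with shLacZ and 86.4% with shPSPC1.

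Lactate leaves and enters through monocarboxylate transporters, whose genes stood at nearly equal levels with shLacZ and less so with shPSPC1. SLC16A1 (MCT1), which moves lactate in either direction, stood at 20.4 ± 0.664 and 24.4 ± 0.730 FPKM, a log2 ratio of 0.25, but at 4294 and 4470 fragments the log2 ratio was 0.03. The sign turned, to -0.29 and -0.23, when assembled transcripts that share 0.5 of their bases with the gene were added. SLC16A3 (MCT4), the exporter of glycolytic cells and a HIF target, stood at 19.1 ± 0.949 and 15.4 ± 0.982 FPKM (log2 ratio -0.30, and -0.37 by estimated fragments). In SLC16A3 the start of the transcripts differed between the files. Its main RefSeq form NM_004207 held 84.5% of the gene's fragments with shLacZ and 44.2% with shPSPC1, where an assembled form with another first exon, not in the control file, held 39.5%. The share of SLC16A1 in the pair's level was 49.2% with shLacZ and 56.6% with shPSPC1.

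The first steps of glycolysis trap glucose as a phosphate and commit it to breakdown. HK1, the housekeeping hexokinase, stood at 22.8 ± 0.686 and 19.99 ± 0.638 FPKM (log2 ratio -0.18), all of it in 1 of its 5 annotated forms. HK2, the hexokinase that HIF induces in many tumours, was barely detected, at 0.224 ± 0.0572 and 0.149 ± 0.0388 FPKM. HKDC1, a hexokinase-like gene of the wider list and not a member, was as abundant as HK1, with 25.8 and 22.3 FPKM, and it made up 55.3% and 55.0% of the summed hexokinase level. It is named here after its values were seen. GPI, which converts glucose phosphate to fructose phosphate, stood at 136.4 ± 2.44 and 136.5 ± 2.65 FPKM (log2 ratio 0.00, and -0.08 by estimated fragments). Phosphofructokinase, the committing step, came mainly from the platelet-type gene PFKP, with 133 ± 1.95 and 114 ± 1.79 FPKM (log2 ratio -0.22). The liver-type gene PFKL (15.1 ± 0.626 and 16.96 ± 0.657 FPKM) and the muscle-type gene PFKM (11.3 ± 0.557 and 12.3 ± 1.75 FPKM) had log2 ratios by estimated fragments of 0.15 and 0.29. The order PFKP, PFKL, PFKM was the same in both libraries, and the share of PFKP in the step was 85.5% and 81.2%.

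**Figure D3:**
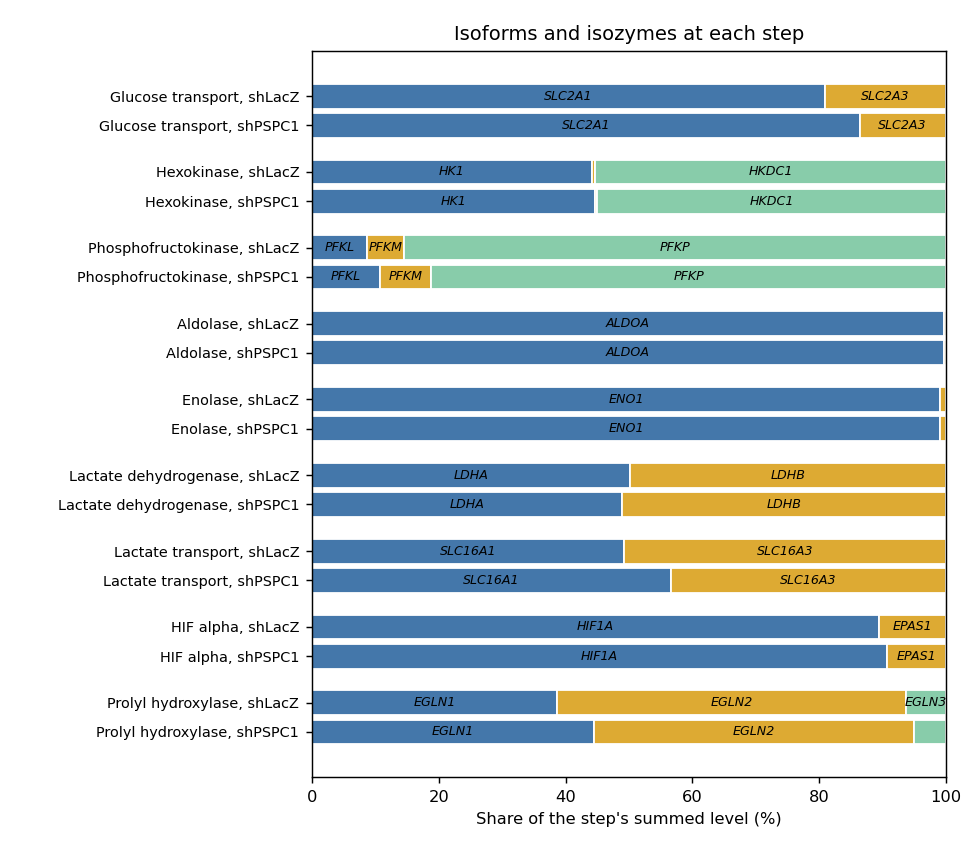
Share (%) of each gene in the summed level of its step, by estimated fragments on the FPKM scale, for the shLacZ and shPSPC1 libraries of 9 steps, with HKDC1 included among the hexokinases and EGLN2 among the prolyl hydroxylases. In each pair of bars the same gene leads in both libraries except where the shares lie near 50%, as for LDHA and LDHB and for SLC16A1 and SLC16A3; the unlabelled segments are HK2, ALDOC, ENO2 and, with shPSPC1, EGLN3.

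The middle of the pathway was carried by single abundant isozymes. ALDOA, the muscle and ubiquitous aldolase, stood at 333 ± 4.73 and 353 ± 4.88 FPKM (log2 ratio 0.08, and 0.06 by estimated fragments), and ALDOC, the brain-type aldolase, at 0.597 ± 0.169 and 0.495 ± 0.153 FPKM. Forms of ALDOA that differ in their start were both used, and the one that starts at 30076994 on the plus strand of chromosome 16 held 73.4% of the fragments with shLacZ and 73.6% with shPSPC1. TPI1, which interconverts the triose phosphates, stood at 298 ± 4.22 and 289 ± 4.13 FPKM, a log2 ratio of -0.04 by both measures. PGK1, the first ATP-yielding enzyme of glycolysis, stood at 214 ± 2.60 and 207 ± 2.53 FPKM (-0.05), and the phosphoglycerate mutase gene PGAM1 at 135 ± 2.48 and 126 ± 2.38 FPKM (-0.11). For TPI1, PGK1 and PGAM1 every fragment lay in intron chains present in both files.

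GAPDH, often used as a reference gene, and ENO1 differed far more by summed FPKM than by fragments. Both have processed pseudogenes, as do PGK1, LDHA and PKM, and how reads shared with those were assigned is unknown. GAPDH, the dehydrogenase that yields NADH, lies on the plus strand of chromosome 12 from 6643585 to 6647537 and was the most abundant member. It stood at 2283 ± 22.5 FPKM with shLacZ and 1478 ± 9.22 FPKM with shPSPC1, a log2 ratio of -0.63, against 99696 and 102843 estimated fragments, a log2 ratio of 0.03. The control file holds a spliced piece of 3 exons and 432 bases, at 1068 ± 20.7 FPKM, that is not in the knockdown file. At that length the value corresponds to 16253 fragments, which is 16.3% of the gene's fragments in the control library. ENO1, the main enolase, which spans 8921059 to 8939151 on chromosome 1, minus strand, stood at 1001 ± 7.74 and 757 ± 5.12 FPKM, a log2 ratio of -0.40, against 89171 and 87395 fragments, a log2 ratio of -0.05. In the control an assembled form of 12 exons and 1598 bases held 67.7% of its fragments, and in the knockdown library the RefSeq form of 2187 bases held them all. ENO2, the neuronal enolase, stood at 6.15 ± 0.4997 and 5.63 ± 0.418 FPKM, so that ENO1 made up 99.1% of the enolase level in each library.

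**Figure D4:**
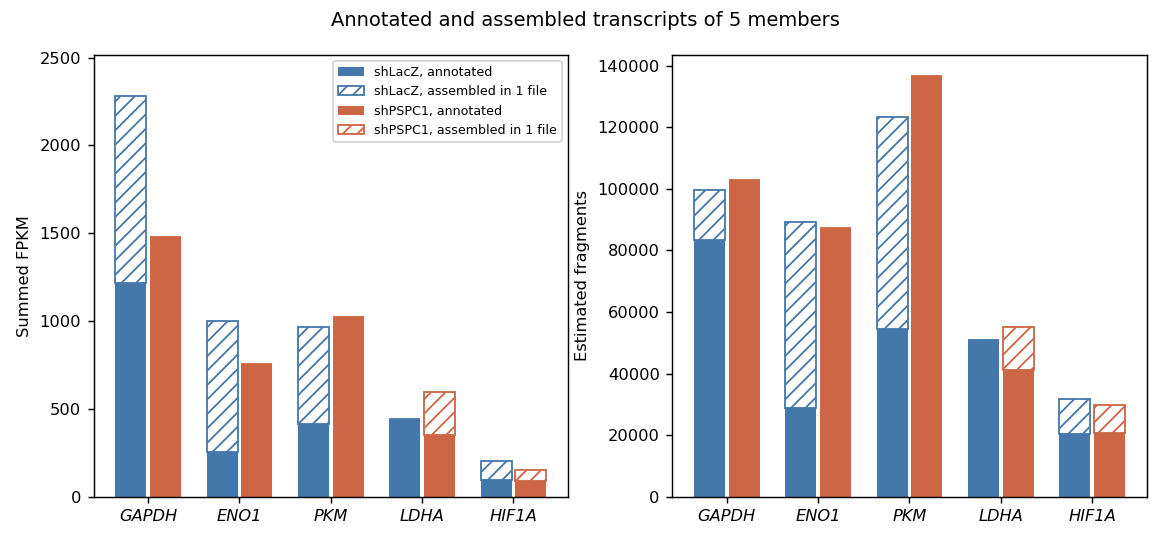
Summed FPKM (left) and estimated fragments (right) of 5 members in the shLacZ and shPSPC1 libraries, split into annotated intron chains (solid) and assembled chains present in 1 file (hatched). The bars of GAPDH, ENO1, LDHA and HIF1A differ between the libraries on the left and are nearly level on the right.

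PKM encodes pyruvate kinase, the last ATP-yielding step, and its mRNA takes 1 of a pair of mutually exclusive exons. The M1 exon is typical of adult muscle and brain, and the M2 exon of proliferating and tumour cells. The exons are shown because the fragments of both libraries lay in chains with only one of them. Both have 167 bases and they match at 105 positions (62.9%). They lie on the minus strand of chromosome 15, the M1 exon at chr15:72203022-72203188 and the M2 exon at chr15:72202454-72202620 of GRCh38 in the GENCODE annotation, and capitals mark the 62 positions at which they differ.
PKM M1 exon: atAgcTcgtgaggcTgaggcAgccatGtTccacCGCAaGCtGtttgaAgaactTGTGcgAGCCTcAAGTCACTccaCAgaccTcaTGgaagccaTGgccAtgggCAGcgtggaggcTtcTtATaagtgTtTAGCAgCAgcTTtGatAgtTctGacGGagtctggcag
PKM M2 exon: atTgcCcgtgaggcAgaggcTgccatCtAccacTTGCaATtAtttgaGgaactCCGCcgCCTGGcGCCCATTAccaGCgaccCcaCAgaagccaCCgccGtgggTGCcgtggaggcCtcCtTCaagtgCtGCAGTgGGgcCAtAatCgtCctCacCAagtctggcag
PKM stood at 968 ± 6.69 and 1024 ± 5.54 FPKM, from 123212 and 136712 fragments (log2 ratio 0.08, and 0.13 by estimated fragments). All of these fragments were in chains with the M2 exon, and every transcript with the M1 exon was listed at 0 in both files. A listing at 0 in these files can be a failed estimate, so it sets no upper limit on M1 mRNA. In the control 55.8% of the PKM fragments were in an assembled form of 13 exons, which also holds the M2 exon, and in the knockdown library all were in the RefSeq M2 form.

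By estimated fragments, lactate dehydrogenase was split nearly evenly between its subunit genes. LDHA, whose subunit favours lactate formation and which is a classical HIF target, stood at 442 ± 3.92 and 597 ± 6.46 FPKM, a log2 ratio of 0.43, but at 50870 and 55040 fragments, a log2 ratio of 0.09. A form of 5 exons and 1158 bases, assembled in the knockdown file alone, held 245 ± 5.22 FPKM there and 25.2% of the gene's fragments. The RefSeq form of LDHA alone stood at 442 ± 3.92 and 353 ± 3.80 FPKM, a log2 ratio of -0.33 by both measures, the opposite sign. LDHB, whose subunit favours pyruvate formation, stood at 521 ± 6.85 and 623 ± 7.86 FPKM (log2 ratio 0.26, and 0.17 by estimated fragments). With RefSeq transcripts alone LDHB gave -0.39 by both measures, also the opposite sign. By estimated fragments, scaled to each gene's longest annotated transcript, LDHA made up 50.2% of the summed level with shLacZ and 49.0% with shPSPC1. By summed FPKM, LDHA stood below LDHB in both libraries. The RefSeq form of LDHA alone, at 353 FPKM with shPSPC1, stood further below the 623 FPKM of LDHB, a sum over all LDHB transcripts. The even split therefore depends on the measure.

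The regulators of flux were level. PFKFB3, which makes the allosteric activator of phosphofructokinase, stood at 57.9 ± 0.969 and 58.8 ± 0.969 FPKM, a log2 ratio of 0.02 by both measures. PFKFB4, the hypoxia-induced enzyme of the same family, stood at 1.42 ± 0.174 and 1.25 ± 0.162 FPKM (-0.10). PDK1, the kinase that shuts pyruvate dehydrogenase, stood at 1.60 ± 0.172 and 1.43 ± 0.167 FPKM (-0.10), and the intervals of PFKFB3, PFKFB4 and PDK1 overlapped between the libraries. Over the 22 glycolysis members at 1 FPKM or more the median log2 ratio was -0.07, and -0.05 by estimated fragments, with 13 of the 15 enzymes of that level within 0.2 of 0 by the second measure. Scaled without mitochondrial genes, the medians were 0.020 and 0.042.

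Of the HIF alpha subunit genes, HIF1A was the more abundant. HIF1A, on the plus strand of chromosome 14 from 62162119 to 62214977, stood at 203 ± 2.89 FPKM with shLacZ and 151 ± 2.12 FPKM with shPSPC1, a log2 ratio of -0.42. Its 31719 and 29757 fragments gave a log2 ratio of -0.11. The RefSeq form NM_001530 alone stood at 93.5 ± 1.46 and 92.5 ± 1.45 FPKM, intervals that overlap. The difference in summed FPKM lay in assembled forms, which are not the same in the files. They were a form of 12 exons in the control (109.8 ± 2.49 FPKM) and another of 16 exons in the knockdown library (58.8 ± 1.55 FPKM). EPAS1, the other HIF alpha gene, stood at 17.01 ± 0.492 and 13.7 ± 0.438 FPKM, a log2 ratio of -0.29 by both measures, in the single annotated form. HIF1A made up 89.5% and 90.7% of the pair's level.

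Of the prolyl hydroxylase genes EGLN1 had a log2 ratio above 0, and EGLN3 and EGLN2 had ratios below 0. EGLN1, the main oxygen sensor of HIF, stood at 25.02 ± 0.507 and 27.5 ± 0.527 FPKM (0.13). EGLN3, a strongly hypoxia-inducible family member, stood at 4.66 ± 0.463 and 4.05 ± 0.465 FPKM (log2 ratio -0.17), and gave -0.32 by its 588 and 448 fragments. Its intervals overlapped by summed FPKM and not by fragments. EGLN2, the remaining HIF prolyl hydroxylase, is in the wider list and not a member, and stood at 37.2 ± 1.153 and 32.7 ± 1.07 FPKM (-0.18). Of the summed level EGLN2 held 55.0% and 50.6%, EGLN1 38.6% and 44.5%, and EGLN3 6.31% and 4.96%.

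Carbonic anhydrases at the cell surface handle the acid that glycolysis exports. CA12 stood at 116 ± 1.47 and 100.3 ± 1.55 FPKM (log2 ratio -0.21, and -0.23 by estimated fragments). CA9, a widely used marker of HIF activity, was under 1 FPKM in both, at 0.748 ± 0.243 and 0.342 ± 0.149 FPKM from 51 and 28 fragments, and its intervals overlapped by estimated fragments and not by summed FPKM. Beside CA9, HK2 and ALDOC, the lipoprotein lipase inhibitor gene ANGPTL4 was under 1 FPKM (0.829 ± 0.212 and 0.759 ± 0.214), and ANKRD37, an ankyrin repeat gene induced by HIF, was listed at 0 in both. These 5 are the members that missed the level of 1 FPKM.

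Among the other hypoxia targets at 1 FPKM or more, ADM and NDRG1 differed most and in opposite directions. ADM, which encodes the vasodilator peptide adrenomedullin, stood at 16.2 ± 1.12 FPKM with shLacZ and 20.9 ± 1.07 FPKM with shPSPC1, a log2 ratio of 0.35, and 0.33 by estimated fragments (1189 and 1537). NDRG1, a stress-response gene, stood at 4.44 ± 0.329 and 3.03 ± 0.270 FPKM (log2 ratio -0.44, and -0.42 by the 729 and 504 estimated fragments). The intervals of each did not overlap, and both ratios were short of 1.5-fold. VEGFA, the angiogenic growth factor, stood at 7.75 ± 0.497 and 7.29 ± 0.474 FPKM (log2 ratio -0.08). The mitophagy receptor genes BNIP3 (14.7 ± 0.874 and 15.8 ± 0.898 FPKM) and BNIP3L (13.5 ± 0.536 and 14.8 ± 0.557 FPKM) had log2 ratios of 0.09 and 0.13. KDM3A, a histone demethylase gene, stood at 4.71 ± 0.274 and 4.52 ± 0.325 FPKM (-0.05). The intervals of VEGFA, BNIP3 and KDM3A overlapped. Of VEGFA, 2 forms were above 0, and the one with an added exon of 132 bases held 49.0% of the fragments with shLacZ and 54.6% with shPSPC1. Over the 11 HIF pathway and target genes at 1 FPKM or more the median log2 ratio was -0.08, and -0.11 by estimated fragments, with 7 of the 11 below 0. Scaled without mitochondrial genes, these medians were 0.0085 and -0.022.

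**Figure D5:**
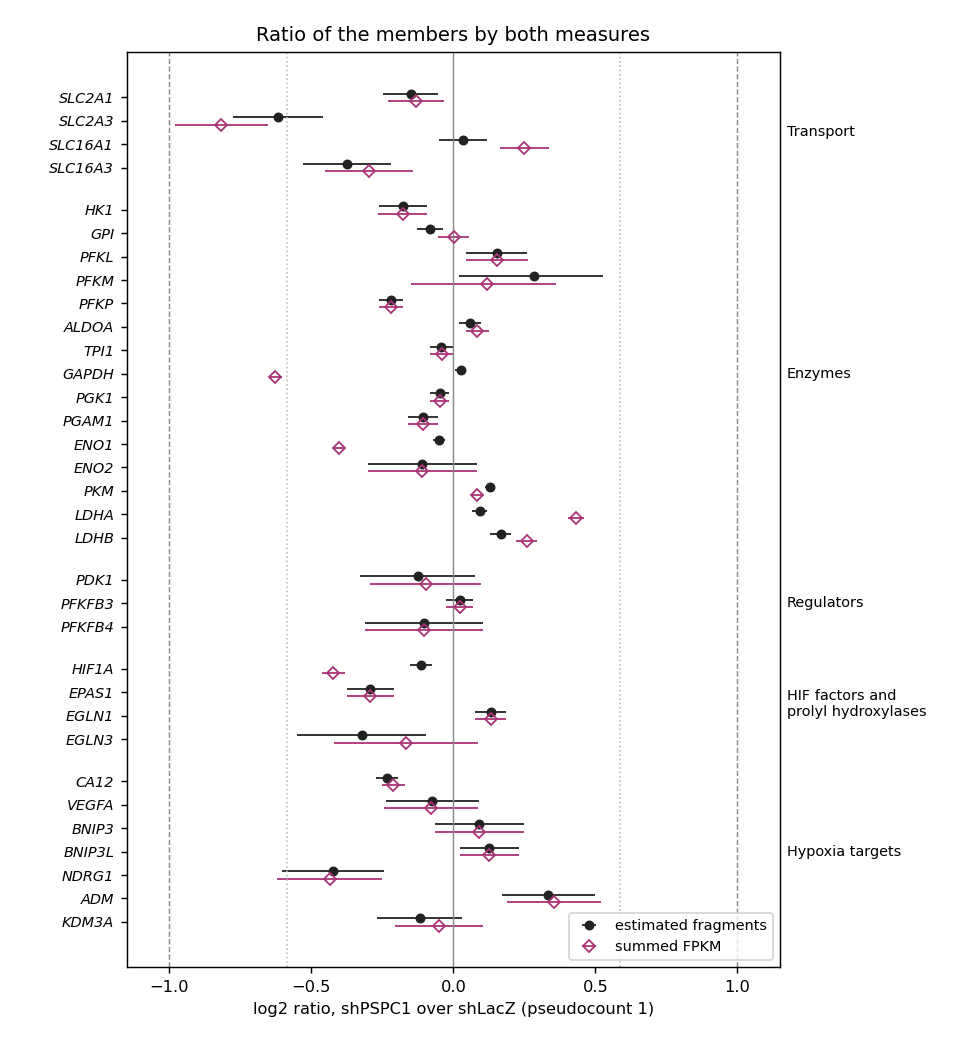
Log2 ratio of shPSPC1 over shLacZ for the 33 members at 1 FPKM or more, by estimated fragments (black circles) and by summed FPKM (open diamonds), with bars from the 95% intervals of both libraries, dotted lines at 1.5-fold and dashed lines at 2-fold. No symbol reaches a dashed line, and the measures part for SLC16A1, GAPDH, ENO1, LDHA and HIF1A.

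The measures gave log2 ratios more than 0.2 apart for 5 of the 33 members (15.2%), namely SLC16A1, GAPDH, ENO1, LDHA and HIF1A, and for 15.01% of all genes. Each file held 91 annotated transcripts of the members, 51 of them listed at 0, and 16 assembled ones. Of 27 members at 5 FPKM or more in both libraries, 8 had a transcript whose share of the gene's FPKM differed by 0.3 or more with intervals that do not overlap, against 23.5% of 7104 genes. They were SLC2A1, SLC16A3, GPI, GAPDH, ENO1, PKM, LDHA and HIF1A. By share of fragments the count was 5, against 20.5% of genes. With RefSeq transcripts alone the log2 ratio by estimated fragments turned sign for 6 members, namely SLC16A1, ALDOA, ENO1, ENO2, LDHA and LDHB, and by summed FPKM also for GPI and GAPDH.

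HIF binds at ACGTG or GCGTG cores of hypoxia response elements, and the stretches before 4 members' starts are shown for this letter pattern. RefSeq promoter windows of GRCh38.p14 matched 33 of the 38 members. In the 250 bases before the start, read on both strands, 37 of 61 member windows (60.7%) held ACGTG or GCGTG, compared with 43.2% of all 35116 windows. By gene, 28 of 33 members (84.8%) held it in at least 1 window, compared with 47.4% of 27305 genes, but members had 1.85 windows each and all genes 1.29. The share was 18 of 22 among glycolysis members and 10 of 11 among the HIF pathway and target members. The members were listed for their known roles in glycolysis and the HIF response. The comparison with all genes was not matched for expression level or base composition. PGK1 and LDHA are shown as enzymes with several matches, ADM as the target with the highest ratio and CA9 as the HIF marker at low level. Capitals mark the pattern on the printed strand or, as CACGT or CACGC, on the other strand.
PGK1 promoter, chrX:78103998-78104247, plus strand: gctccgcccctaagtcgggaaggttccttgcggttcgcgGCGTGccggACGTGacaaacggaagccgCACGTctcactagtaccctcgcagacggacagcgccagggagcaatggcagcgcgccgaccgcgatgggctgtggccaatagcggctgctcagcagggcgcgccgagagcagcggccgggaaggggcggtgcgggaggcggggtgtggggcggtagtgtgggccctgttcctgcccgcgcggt
LDHA promoter, chr11:18394313-18394562, plus strand: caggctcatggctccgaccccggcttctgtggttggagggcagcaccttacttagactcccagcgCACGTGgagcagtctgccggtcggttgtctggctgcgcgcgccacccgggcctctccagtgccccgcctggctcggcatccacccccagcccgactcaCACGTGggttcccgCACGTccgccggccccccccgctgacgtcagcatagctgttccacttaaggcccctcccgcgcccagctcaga
ADM promoter, chr11:10304823-10305072, plus strand: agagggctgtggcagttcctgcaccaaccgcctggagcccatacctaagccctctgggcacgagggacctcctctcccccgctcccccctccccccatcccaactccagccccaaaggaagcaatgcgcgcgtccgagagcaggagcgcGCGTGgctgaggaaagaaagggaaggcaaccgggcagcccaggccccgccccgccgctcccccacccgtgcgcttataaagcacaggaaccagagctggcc
CA9 promoter, chr9:35673678-35673927, plus strand: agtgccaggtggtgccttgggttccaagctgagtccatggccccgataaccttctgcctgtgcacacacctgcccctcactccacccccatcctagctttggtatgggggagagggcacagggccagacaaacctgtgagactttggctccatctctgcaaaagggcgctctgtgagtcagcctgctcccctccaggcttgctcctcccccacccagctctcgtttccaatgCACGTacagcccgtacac
The LDHA stretch, the first of its 2 windows, held 5 matches, of which 4 come from a pair of CACGTG palindromes that read the same on both strands. PGK1 held 3 matches, ADM 1 and CA9 1. A match is a description of the letters and shows no binding, and the 4 genes that hold the pattern ranged from 0.342 to 597 FPKM.

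Of 31 further isozymes and regulators of glycolysis 16 reached 1 FPKM, with median log2 ratios of 0.05 by summed FPKM and 0.03 by estimated fragments. None of the 16 passed the 2-fold rule by both measures, a count near the 2.45% of all genes, and 11 (68.8%) lay within 0.2 of 0 by estimated fragments, compared with 61.5% of all genes. The most abundant were BSG, the chaperone of lactate transporters, at 152 and 173 FPKM, and the mitochondrial phosphatase PGAM5 at 41.1 and 41.6 FPKM. Past 1.5-fold in both measures was 1 of the 16 (6.25%, against 5.77% of all genes), ADPGK, an ADP-dependent glucokinase, which was higher at 17.9 ± 0.757 and 28.2 ± 0.935 FPKM. ADPGK and the other genes named for passing 1.5-fold in the pathway lists were chosen after their values were seen.

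In the lists of pyruvate entry into mitochondria and of gluconeogenesis and the pentose phosphate pathway 0 of 13 and 0 of 10 genes passed 1.5-fold in both measures, counts too small to set apart from the 5.77% of all genes. Of 13 genes of pyruvate dehydrogenase and pyruvate transport at 1 FPKM or more, 9 (69.2%) had a ratio above 0 by estimated fragments, compared with 51.0% of all genes, with medians of 0.20 by summed FPKM and 0.21 by estimated fragments. By summed FPKM the most abundant were PDHA1, the alpha subunit of the dehydrogenase, and the pyruvate carrier gene MPC2. PDHA1 stood at 73.4 and 39.4 FPKM (log2 ratio -0.88, but 0.26 by estimated fragments). MPC2 stood at 57.5 and 47.3 FPKM (-0.28, and 0.14 by estimated fragments). For both of these genes the sign depends on the measure, and by estimated fragments other genes of the list stood above MPC2. Of 10 genes of gluconeogenesis and the pentose phosphate pathway the medians were -0.02 and -0.03, and the most abundant were PGD (349 and 386 FPKM), which yields NADPH, and TKT (309 and 396 FPKM), the transketolase.

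Of 17 HIF subunit, degradation and cofactor genes at 1 FPKM or more, 0 passed 1.5-fold in both measures, a count near the 5.77% of all genes, with medians of 0.05 and 0.04. The chaperones HSP90AA1 (304 and 324 FPKM) and HSP90AB1 (251 and 261 FPKM) led that list. Of 40 further HIF targets at 1 FPKM or more, 2 were higher and 3 lower past 1.5-fold in both measures (12.5%, against 5.77% of all genes), and 0 passed the 2-fold rule by both. By estimated fragments 16 of the 40 (40.0%) lay within 0.2 of 0, a smaller share than the 61.5% of all genes, and the medians were 0.04 and 0.05. The most abundant were the cytokine gene MIF (292 and 309 FPKM) and the prolyl hydroxylase subunit gene P4HB (173 and 187 FPKM). Among the lower ones were the receptor kinase gene MET (61.3 ± 0.822 and 35.7 ± 0.622 FPKM) and the hormone gene STC2 (4.07 ± 0.236 and 2.16 ± 0.171 FPKM). The higher ones were LIMD1 (5.55 ± 0.254 and 8.96 ± 0.320 FPKM), a scaffold of HIF degradation, and TMEM45A (0.259 ± 0.106 and 1.20 ± 0.291 FPKM). MXI1, an antagonist of MYC, passed the 2-fold rule by estimated fragments alone, with a log2 ratio of 1.13, against -0.82 by summed FPKM (2.52 and 0.992 FPKM), and is named after its values were seen.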

How the data were processed

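Values came from 2 deposited transcript files, 1 per library, in which the authors gave FPKM and its 95% interval for each transcript, per the file headers. The integer in the score column of the deposited files was not used. TopHat2 2.0.7, CASAVA 1.8.2 and Cufflinks 2.1.1 are listed in the submitters' processing notes. The build, strandedness and poly(A) selection are not given in the sources used here. Gene positions match GRCh37, and positions without a named build are the files' own. An assembled transcript with a strand was counted to the gene with which it shared an intron. Half-widths were joined as the root of summed squares.

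Depth and mean fragment length (161 and 164 bases) were estimated from the intervals of loci with 1 transcript, whose implied fragment numbers were whole within 0.02 for 94.2% of 29032 loci in the control and 94.5% of 35288 in the knockdown file. Fragment totals per gene were rescaled to FPKM by the effective length of its longest annotated transcript. The step was tested on simulated data. The pseudocount was 1. Every member was named, and of each pathway list the genes past the 2-fold rule by both measures and the 2 with the highest mean FPKM. HKDC1, EGLN2, ADPGK, MET, STC2, LIMD1, TMEM45A and MXI1 fall outside that rule and were named after their values were seen. The members, lists and measures were chosen with earlier results of these data known. Python 3.11.15, numpy 2.4.6, pandas 2.3.3 and matplotlib 3.10.9 were used. Alternatives changed the pseudocount, the filter, the scaling and the transcripts counted.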

Additional observations from a re-analysis of the deposited data

Results flagged for a closer look

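Pieces assembled without a strand inside the 38 genes enter no comparison above, and they held more fragments in the knockdown library. There were 30 pieces with 862 estimated fragments in the control and 27 with 1593 in the knockdown library, 1.85 times as many, in 7 of the 38 genes. All such pieces of the files, 29208 and 36255, held 2790955 and 3267488 fragments, a ratio of 1.17. PFKFB4 set much of the difference, with 49 and 399 fragments, of which 360 lay in a piece of 1674 bases (4.18 FPKM) on chromosome 3 from 48561315 to 48562988 that is not in the control file. Without PFKFB4 the counts were 813 and 1194, a ratio of 1.47. PFKFB3 held 532 and 864 fragments in 12 pieces in each file, most of them between 6205814 and 6218244 on chromosome 10, before the start of its expressed form at 6244840. KDM3A held 186 and 264 in 9 pieces in each. Which strand these fragments came from, and whether they belong to the genes around them, was not tested.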

How the results depend on the processing

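No paired analysis was possible because each group has 1 library and the labels give no replicate numbers. No replicate could be left out for the same reason. The count of members past the 2-fold rule was 0 by each measure, and it was 5 and 5 with annotated transcripts alone (SLC16A1 and SLC16A3 lower, PFKM, ENO1 and PKM higher) and 3 and 3 with intron chains present in both files alone (SLC16A3, ENO1 and PKM). With the most abundant transcript of each file alone it was 1, SLC16A3 at 16.2 and 6.60 FPKM. These settings leave out fragments that the other file gives to an assembled form. The count past 1.5-fold in both measures was 1, and it was 7 with annotated transcripts, 4 with shared chains and 0 after rescaling to the same sum without mitochondrial genes. That rescaling shifts log2 ratios by 0.10 (0.09 by estimated fragments). It moved the glycolysis median to 0.020 (0.042 by estimated fragments) and the HIF pathway and target median to 0.0085 (-0.022). It turned the sign of the log2 ratio for GPI, TPI1, PGK1, ENO1 and VEGFA by estimated fragments, all within 0.09 of 0, and for TPI1, PGK1, VEGFA and KDM3A by summed FPKM. Rescaling to a median of 0 turned GPI by summed FPKM (-0.0065). The HIF pathway and target median was -0.24 from the most abundant transcript, and 0.0086 by estimated fragments over genes at 5 FPKM or more. By share of fragments, an alternative chosen after seeing the data, transcript shares differed in 5 members and not 8. The choice of transcripts turned more signs: by estimated fragments, 6 members with annotated transcripts alone (SLC16A1, ALDOA, ENO1, ENO2, LDHA and LDHB), 4 with shared chains (SLC2A1, ENO1, ENO2 and LDHA) and SLC16A1 with transcripts placed by bases. By summed FPKM the counts were 8, 6 and 1, and 7 with the most abundant transcript alone. Of 495 values of single members under 8 settings, 376 moved by no more than their interval half-width. Many of these could hardly move or not at all, so the count is no measure of stability. ANKRD37 stayed at 0 throughout, and HK1 has no assembled transcript to leave out. Rescaling to a median of 0 moved 0 of its values and left 76 the same. Depth limits CA9, HK2, ALDOC and ANGPTL4, with 28 to 87 fragments each.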
